A study of Mus musculus with 6 samples.

Results

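Of the 22188 peaks of Krüppel-like factor 3 (KLF3) and its mutants mapped on mm9 in murine embryonic fibroblasts (MEFs), 4162 were intergenic peaks whose centre lay more than 10 kb and at most 100 kb from the nearest transcription start site (TSS). They were chosen by position alone, from the region and the distance to the TSS that the authors' annotation gives, and made up 18.8% of all peaks. Of the other intergenic peaks, 1318 lay within 10 kb of a TSS and 4206 beyond 100 kb. The cells were C57BL/6 Klf3-/- MEFs, so that no group held endogenous KLF3, and they were rescued by an MSCV retrovirus with V5-tagged full-length KLF3, with ΔDL or with DBD. ΔDL carries a substitution in the motif that contacts the corepressor CtBP, and DBD lacks the N-terminal domain and keeps the zinc fingers, with a putative signal for nuclear import. V5-bound chromatin was sequenced (ChIP-seq) in 2 replicates per construct, each with its own input. Each rescued line was a stable clone, so the construct and the clone cannot be told apart, and the spread between replicates does not include a spread between clones. No expression values were used here, so the cell type was not checked against marker genes.

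KLF3 is a zinc finger protein of the Sp/KLF family, whose members bind CACCC boxes and related GC-rich elements. It is known mainly as a repressor that recruits CtBP through its N-terminal domain. Distal intergenic sequence holds enhancers, which in fibroblasts often combine sites for AP-1 (Fos and Jun dimers), TEAD and RUNX factors and can act on genes far away. A peak is called here by the gene with the nearest TSS, which does not show that the site acts on that gene.

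The central 100 bases of 9 peaks are shown, since they span the ways in which the 3 constructs differed at these distal sites. Sequences are the plus strand of mm9, 5′ to 3′. Capitals mark KLF words (ACACCC, its variant CCACCC, the form ACGCCC or the form CCGCCC) and the AP-1 word TGACTCA on either strand, so that GGGTGG, for example, is CCACCC on the minus strand. KLF words can overlap, as they do near Klhdc8a. The first 4 had some of the greatest KLF3 heights. They lie at chr5:150040679-150040778 near Alox5ap, chr16:31291097-31291196 near Ppp1r2, chr8:86716008-86716107 near Mir181c and chr1:134184806-134184905 near Klhdc8a.
Alox5ap: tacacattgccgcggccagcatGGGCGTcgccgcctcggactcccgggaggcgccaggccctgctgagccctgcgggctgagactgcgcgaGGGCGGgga
Ppp1r2: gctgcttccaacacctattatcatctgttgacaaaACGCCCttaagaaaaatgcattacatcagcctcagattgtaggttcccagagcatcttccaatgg
Mir181c: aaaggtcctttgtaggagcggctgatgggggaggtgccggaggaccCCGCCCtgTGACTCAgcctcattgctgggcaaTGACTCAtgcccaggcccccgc
Klhdc8a: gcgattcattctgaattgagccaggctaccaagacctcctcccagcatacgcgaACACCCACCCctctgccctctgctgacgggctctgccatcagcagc
The next pair had the largest difference of ΔDL from KLF3 among peaks of height 8 or more that both replicates of the higher construct held, upwards at chr5:91466901-91467000 near Epgn and downwards at chr1:182708387-182708486 near H3f3a.
Epgn: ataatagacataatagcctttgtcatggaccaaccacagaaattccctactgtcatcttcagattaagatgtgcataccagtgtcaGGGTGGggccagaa
H3f3a: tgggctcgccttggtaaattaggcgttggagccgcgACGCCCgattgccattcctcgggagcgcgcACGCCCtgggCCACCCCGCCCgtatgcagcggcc
The last 3 were among the highest for DBD, at chr13:9010993-9011092 near Gtpbp4, chr10:8297068-8297167 near Ust and chrX:69019845-69019944 near Vma21.
Gtpbp4: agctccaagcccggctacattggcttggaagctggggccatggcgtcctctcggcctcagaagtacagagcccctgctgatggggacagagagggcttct
Ust: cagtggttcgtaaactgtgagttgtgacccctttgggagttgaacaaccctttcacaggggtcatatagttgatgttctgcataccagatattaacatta
Vma21: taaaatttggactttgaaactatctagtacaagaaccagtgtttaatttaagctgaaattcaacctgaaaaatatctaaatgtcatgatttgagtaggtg
The sequences near Alox5ap, Ppp1r2, Mir181c, Klhdc8a, Epgn and H3f3a hold between 1 and 4 KLF words in these 100 bases, and that of Mir181c holds 2 AP-1 words as well. Of the 5 highest DBD peaks, those near Gtpbp4, Ust and Vma21 hold neither word in these 100 bases, whereas those near Grap and Klhdc8a hold 1 and 2 KLF words.

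By height, the intergenic peaks 10 to 100 kb away had DBD either far below KLF3 or near it or above, with few in between. Heights are log2 values of the tags within 400 bp, counted over both replicates and normalized to 100 M tags, so they carry no replicate error. The median height was 7.15 for KLF3 (quartiles 6.39 and 7.95), 7.53 for ΔDL (7.09 and 8.02) and 6.29 for DBD (5.43 and 6.89). Over all peaks the medians were 7.35, 7.52 and 6.19, respectively.

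The height difference of DBD from KLF3 had a median of −0.32 with quartiles of −2.64 and 0.43. Its distribution had 2 maxima. In steps of 0.5 on the log2 scale, 424 peaks lay between −3 and −2.5, 74 between −1 and −0.5, and 987 between 0 and 0.5. DBD was lower than KLF3 by 2-fold or more at 1961 peaks, which is 47.1% against 52.6% of all 22188 peaks. It was at least 2-fold higher at 146, or 3.51% against 3.27% of all peaks. The difference of ΔDL from KLF3 had a median of 0.65 (quartiles −0.34 and 1.09), against 0.42 over all peaks. For ΔDL, 428 peaks were lower by 2-fold or more (10.3%, against 14.9% of all peaks) and 1299 were higher (31.2%, against 28.9%).

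**Figure D1:**
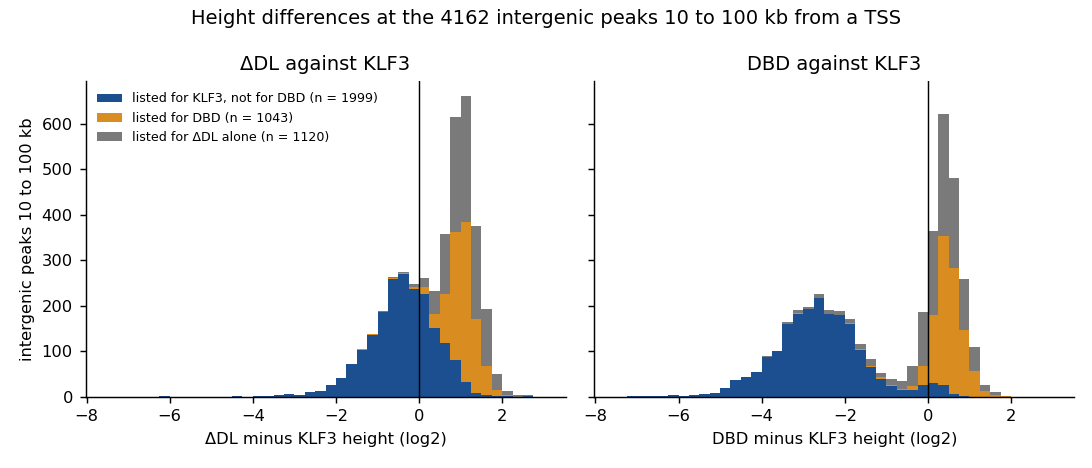
Histograms of the height difference (log2, x axis) of ΔDL (left) and DBD (right) from KLF3 over the 4162 intergenic peaks 10 to 100 kb from a TSS (y axis, number of peaks), with colours for the construct whose merged list held the peak. DBD differences form 2 separate masses, one below −1.5 made mostly of peaks listed for KLF3 and not for DBD and one around 0.4. The ΔDL differences are less clearly split, with a maximum near 1 and a broad shoulder around 0 and below.

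These splits depend on the scale. At the 2334 peaks of the whole table that were listed for all 3 constructs, the median height of ΔDL was 1.03 above that of KLF3 and that of DBD 0.41 above. When the heights were scaled so that these medians were equal, ΔDL was at least 2-fold lower at 34.7% of the distal peaks and higher at 0.384%, so the direction of most ΔDL differences turned. For DBD the lower share was 48.6% and the higher share 0.457%.

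The merged list of a construct holds the peaks called in both of its replicates, and it separated the 2 masses. KLF3 alone listed 1567 of the distal peaks (37.7%, against 42.4% of all peaks), KLF3 with ΔDL 432 (10.4%, against 10.4%) and all 3 constructs 506 (12.2%, against 10.5%). ΔDL alone listed 1120 (26.9%, against 24.8%), ΔDL with DBD 431 (10.4%, against 9.46%), DBD alone 94 (2.26%, against 2.09%) and KLF3 with DBD 12 (0.288%, against 0.266%). The split of the distal peaks was thus near that of all peaks. Listing and height come from the same tags, so heights by list are a description. At the 1999 peaks listed for KLF3 and not for DBD the median heights were 7.94 for KLF3, 7.62 for ΔDL and 5.46 for DBD, and DBD was at least 2-fold lower at 92.8% of them. At the 1043 peaks listed for DBD they were 6.76, 7.79 and 7.21, and DBD was at least 2-fold lower at 14. The 1120 peaks listed for ΔDL alone had medians of 6.15, 7.20 and 6.44, so that KLF3 and DBD were both low there. They resembled the DBD-listed peaks and not the KLF3-listed peaks in the difference of DBD from KLF3, at a median of 0.34 against 0.48 and −2.65. DBD replicates 1 and 2 held 27.5% and 12.1% of these 1120, so a difference near 0 does not show that DBD marked a site.

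The 3 sets also differed in sequence, which the lists did not use. A KLF word lay within 200 bp around the centre of 67.1% of the peaks listed for KLF3 and not for DBD, against 28.3% of 200 bp flanks 400 to 600 bp from the centre. For the peaks listed for DBD the share was 14.7%, below the 20.1% of their flanks, and for those listed for ΔDL alone it was 20.1%, against 20.3% of the flanks. Over all distal peaks it was 41.3%, against 50.2% of all 22188 peaks. The AP-1 word was in 32.3% of the first set, against 4.65% of its flanks, in 2.68% of the DBD-listed peaks and in 4.46% of those of ΔDL alone. It was more frequent in the distal peaks (17.4%) than in all peaks (12.3%). Intronic peaks at the same distance (17.9%) and intergenic peaks within 10 kb (18.2%) held it at similar shares. Promoter peaks (3.28%) and intergenic peaks beyond 100 kb (9.03%) held it less often.

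Words of RUNX and TEAD factors followed the same order between the sets. Their shares were below that of the AP-1 word in the peaks listed for KLF3 and not for DBD, and above it in the other sets. The RUNX word TGTGGTT was in 12.1% of the peaks listed for KLF3 and not for DBD, in 4.60% of those listed for DBD and in 5.62% of those listed for ΔDL alone, with flanks between 4.58% and 5.08%, and in 6.13% of all peaks. The TEAD word AGGAATG or its variant GGGAATG was in 14%, 6.52% and 7.14% of these sets and in 8.53% of all peaks. The ETS word CCGGAAG was rare, in 1.20% of the distal peaks against 4.44% of all peaks. The median G+C content was 48.5%, 37.5% and 38.5% in the 3 sets, and 43.0% over all distal peaks. LINE repeats held the centre of 2.64% of the annotated peaks listed for KLF3 and not for DBD, 12.6% of those listed for DBD and 14.3% of those listed for ΔDL alone, and the median PhastCons conservation was 0.11, 0.03 and 0.03.

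Across the peaks listed for KLF3 and not for DBD, KLF words peaked at the centre. There were 36.9 and 42.1 words per 100 peaks in the central pair of 50 bp steps, against 9.85 at 500 bp upstream, and for the AP-1 word 11.6 and 11.9 against 1.35. The peaks listed for DBD had 5.47 and 4.03 KLF words per 100 peaks at the centre, against 5.85 at 500 bp. Those listed for ΔDL alone had 6.34 and 6.70, against 5.89. A maximum at the centre was thus seen in the first set and not in the other two.

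**Figure D2:**
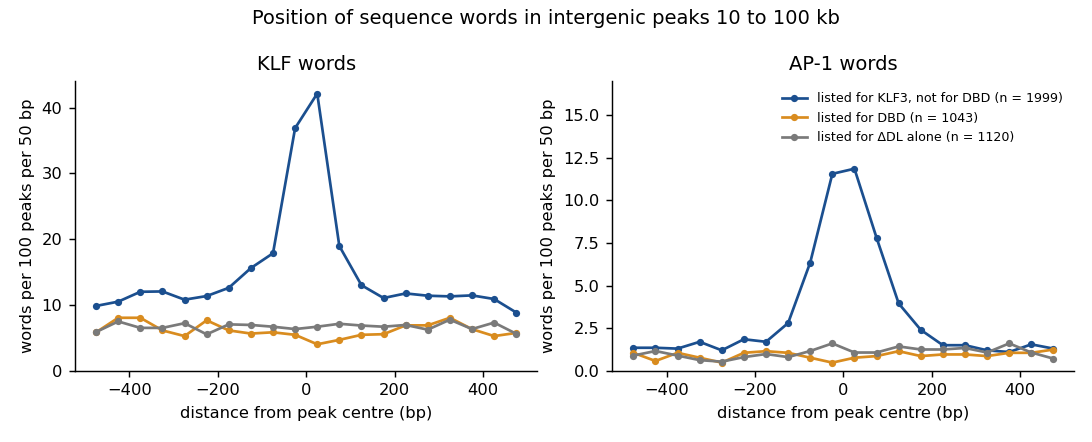
Number of KLF words (left) and AP-1 words (right) per 100 peaks in 50 bp steps (y axes, different scales) against the distance from the peak centre in bp (x axis), for the 3 sets of distal peaks. The line of the peaks listed for KLF3 and not for DBD reaches 42.1 KLF words and 11.9 AP-1 words at the centre, and the lines of the other sets stay near the level of their flanks.

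KLF3 height went with the number of KLF words. The 2442 distal peaks with no KLF word had a median KLF3 height of 6.66, the 1071 with 1 word 7.72, the 418 with 2 words 8.0 and the 231 with 3 or more 8.20. DBD was lower than KLF3 by 2-fold or more at 24.0%, 74.6%, 87.3% and 91.3% of them. The median difference of ΔDL from KLF3 went from 0.94 through 0.01 and −0.34 to −0.72. The AP-1 word without a KLF word, at 297 peaks, came with a KLF3 height of 7.67 and a DBD difference of −2.46, close to the 7.78 and −2.22 of the 1294 peaks with a KLF word alone. At the 2145 peaks with neither word the medians were 6.56 and 0.35, and at the 426 with both they were 8.09 and −2.89. Both KLF3 replicates called 44.5% of the peaks with no KLF word and 93.5% of those with 3 or more. The others entered through a mutant list, which goes with a low KLF3 height. The part of this in the trends with words was not tested.

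G+C content varied with the words, so the shares were also taken within G+C classes. Between 45 and 50% G+C, DBD was at least 2-fold lower at 82.9% of the 496 peaks with a KLF or AP-1 word and at 29.1% of the 289 with neither. Below 40% G+C these shares were 43.6% (n = 266) and 6.37% (n = 1241), and at 55% or more they were 96.6% (n = 441) and 60% (n = 35). In all 5 classes the share was larger with a word, and within both kinds of peak it was larger at higher G+C.

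Single KLF words were unevenly spread between the ΔDL classes. CCGCCC was in 29.2% of the 428 distal peaks with ΔDL lower than KLF3 by 2-fold or more, in 13.4% of the 2091 other peaks listed for KLF3, and in 1.69% of the 1299 peaks at which ΔDL was at least 2-fold higher. CCACCC was in 33.4% and 23.0% of the first 2 classes, ACACCC in 26.4% and 22.8%, and ACGCCC in 13.6% and 10.7%. Over all peaks CCGCCC was in 24.7%, CCACCC in 21.0%, ACACCC in 14.9% and ACGCCC in 12.5%. The AP-1 word was in 36.0%, 24.2% and 2.85% of the 3 classes. On scaled heights the classes held 1445, 1094 and 16 peaks. CCGCCC was then in 23.7%, 6.12% and 0 of them, and CCACCC in 30.8%, 16.5% and 2 peaks. ACACCC was in 26.6% and 19.3% of the first 2. The AP-1 word was in 37.0%, 11.9% and 0, so the first class again had the larger shares. G+C content also varied between the classes. As deposited, ΔDL was at least 2-fold lower at 33.8% of distal peaks of 55% G+C or more and at 0.612% of those below 35%. These word shares were not taken within G+C classes.

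Replicate lists show how far these descriptions hold in each library. Of the distal peaks, the lists of KLF3 replicates 1 and 2 held 3263 and 2652, those of ΔDL 2578 and 3524, and those of DBD 1423 and 1252. Both replicates held 61.0% of them with KLF3, 60.5% with ΔDL and 25.1% with DBD, against 64.1%, 55.9% and 22.4% of all peaks. Depth differed between the libraries. The step of the peak scores shows that 5.46 M and 18.1 M tags stood behind the KLF3 lists, 1.77 M and 10.2 M behind the ΔDL lists, and 7.81 M and 8.38 M behind the DBD lists. These totals are lower than the mapped reads that the study lists and stand in other ratios, for which no reason is given in the sources used here. In ΔDL replicate 1 the median distal peak held 7 tags and the lowest 4, so absence from that list is weak evidence of a low signal. Across distal peaks called in both replicates, the Pearson correlation of log2 scores was 0.744 for KLF3 (n = 2537), 0.536 for ΔDL (n = 2519) and 0.741 for DBD (n = 1045), over peaks of 1 pair of libraries each.

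The 1567 distal peaks listed for KLF3 alone were often not absent from ΔDL. ΔDL replicate 2 held 62.4% of them and the shallow replicate 1 held 3.51%. The 947 found in ΔDL replicate 2 and not in replicate 1 had a median ΔDL difference of −0.31, and the 565 found in neither had one of −1.07. DBD replicate lists each held under 4% of the 1999 peaks listed for KLF3 and not for DBD, at 3.6% and 3.7%. The 431 peaks listed for ΔDL and DBD and not for KLF3 were mostly held by KLF3 replicate 1 (75.4%) and seldom by replicate 2 (6.03%), so their absence from the KLF3 list rests on the deeper replicate.

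For each replicate list alone, the intergenic peaks 10 to 100 kb away differed in sequence between constructs in the same order. They made up 19.3% and 17.2% of the KLF3 lists, 20.3% and 19.6% of the ΔDL lists, and 20.3% and 20.2% of the DBD lists. KLF words were in 41.9% and 59.2% of these peaks in the KLF3 lists, 24.1% and 37.0% in the ΔDL lists, and 15.7% and 18.8% in the DBD lists. Means were 50.5% ± 12.2 (SD, n = 2), 30.6% ± 9.07 and 17.3% ± 2.15. No list of one construct overlapped those of another, although the KLF3 replicates differed by more than KLF3 replicate 1 and ΔDL replicate 2.

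AP-1 words were in 20.7% and 26.4% of the distal peaks of the KLF3 lists, 6.59% and 14% of those of ΔDL, and 3.07% and 3.18% of those of DBD. The mean of ΔDL was 13.3 percentage points below that of KLF3 and that of DBD 20.4 points below. Median G+C was 43.0% and 48.5% with KLF3, 39.0% and 42.5% with ΔDL, and 37.5% in both DBD lists. In the two-sided exact permutation test of 2 lists against 2, p was 0.333 for each of these differences from KLF3, the smallest value that the design allows, so none could pass 0.05. Shares of the lists themselves overlapped between ΔDL and DBD (exact permutation p = 1). Within each construct the deeper KLF3 and ΔDL list had the larger share of peaks with KLF words, and the part of depth in the differences between constructs was not tested.

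**Figure D3:**
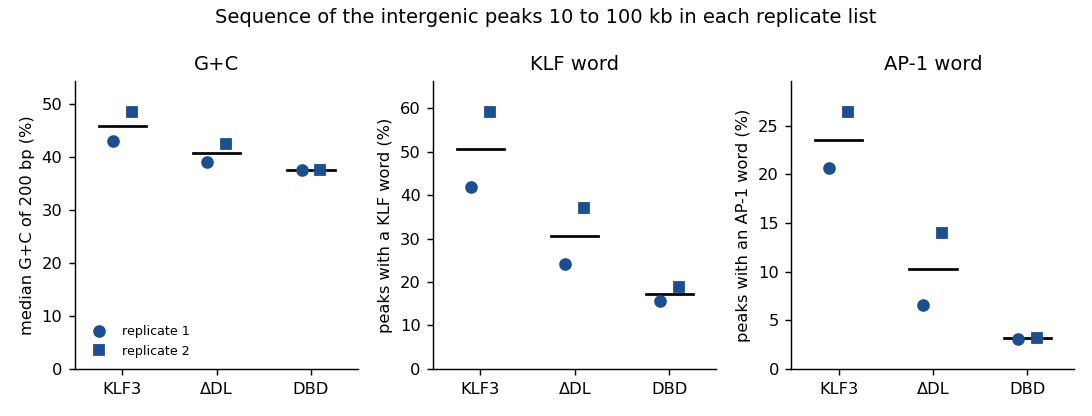
Median G+C content of 200 bp and the shares of intergenic peaks 10 to 100 kb away with a KLF word or an AP-1 word (y axes, %) in each replicate list (points) of KLF3, ΔDL and DBD, with the mean of both replicates as a line. DBD lists lie lowest and KLF3 lists highest in all 3 panels, and the replicates of KLF3 and of ΔDL lie apart.

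A test per site was possible where all 4 lists of a contrast held a peak. There, log2 peak scores were centred on the median of each list and fitted with limma, with Benjamini–Hochberg adjustment over all such sites of the table. The result is a score relative to the other shared sites, and sites lost by a mutant cannot enter. Of 987 distal peaks tested for ΔDL, 52 (5.27%) had a lower relative score than in KLF3 at adjusted p under 0.05 by limma, against 9.06% of all 4892 sites, and 1 (0.101%) had a higher one, against 0.143%. The 52 rested on 51 distinct list peaks, since neighbouring members can share one.

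The 52 distal peaks with a lower relative ΔDL score had a median difference of −1.46 on the log2 scale, a median G+C of 54.5%, a KLF word in 92.3% and the AP-1 word in 36.5%. Among the 934 that did not pass, these shares were 40.4% and 12.2% and the median G+C was 42.0%. The 52 also had a higher KLF3 height, with a median of 9.21 against 7.31, and over all distal peaks the share with a KLF word was 90% at KLF3 heights of 9 to 9.5, so the word share of the 52 is near that of any distal peak so high. Near Wnt11, the gene of a non-canonical Wnt ligand, the peak at chr7:105964597-105964997 had 44 and 106 tags in the KLF3 replicates and 5 and 16 in the ΔDL replicates. Its relative difference was −2.55 ± 0.46 (SE, limma adjusted p = 2.4e-05). The SE of 0.46 was the same at every distal peak that passed for ΔDL. It is pooled over sites and does not measure the spread of each peak's own replicates. The peaks near Gnb1l (−2.40), near Krt78, the gene of a keratin (−2.07), and near Mir101b (−2.04) followed. The peak near Epgn, the gene of the growth factor epigen, was the one with a higher relative score, by 2.02 ± 0.46 (limma adjusted p = 0.00117).

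The number that passed varied when a library was left out. Such a fit leaves a construct with 1 library, which is assumed to vary like the pair of the other construct, and the median SE was 0.63 without either KLF3 library and 0.46 without either ΔDL library, as in the full fit. Fewer distal peaks passed as lower in limma without KLF3 replicate 1 or ΔDL replicate 1, fewest without KLF3 replicate 2, and more without ΔDL replicate 2. In each of these fits the share lower was smaller among distal peaks than among all sites tested. The differences at Wnt11 and Gnb1l kept their direction in each of these fits, and their limma adjusted p reached 0.199 and 0.211 without KLF3 replicate 2. The higher score near Epgn had a limma adjusted p of 0.082 without KLF3 replicate 1 and 0.195 without KLF3 replicate 2. Without the centring none passed in either direction in limma (37 at an unadjusted p under 0.05).

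For DBD, 521 distal peaks could be tested. By limma 20 (3.84%) were lower relative to KLF3, against 3.74% of all 2409 sites, and 0 were higher, against 0.0415%, with 51 at an unadjusted p under 0.05. The 20 held a KLF word in 90.0% and the others in 15.8%, with median G+C of 48.0% and 39.0% and median KLF3 heights of 9.11 and 7.02. Their word share is also that of distal peaks with KLF3 heights of 9 to 9.5. The peak near Mir100, a microRNA gene, at chr9:41323111-41323511 had 51 and 122 tags in the KLF3 replicates and 9 and 8 in the DBD replicates, a relative difference of −3.20 ± 0.28 (SE, limma adjusted p = 2.78e-10). The lowest distal peaks of DBD replicates 1 and 2 held 7 and 8 tags, so its DBD tags lie near the limit of calling. Sites with fewer DBD tags could not enter the fit, which limits how far DBD scores can vary between sites and replicates. Those near Kpna2, the gene of a nuclear import receptor (−2.67), Nkx2-3, of a homeodomain factor (−2.42), Haao (−2.07) and Fabp5, of a fatty acid binding protein (−2.03), came next. Fewer distal peaks passed as lower in limma when any single library was left out, and fewest without DBD replicate 1. Their share was then smaller than that of all sites tested.

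At 9 of the 10 highest KLF3 peaks DBD was low. The peak near Alox5ap, the gene of the protein that activates 5-lipoxygenase, had 70 and 177 tags in the KLF3 replicates, 12 and 49 in ΔDL and 8 in DBD replicate 1, with no call in DBD replicate 2. Its heights were 10.86, 9.95 and 6.85. Near Mir181c, the gene of a microRNA, at chr8:86715858-86716258, 78 and 166 tags in KLF3 and 12 and 83 in ΔDL gave heights of 10.28 and 9.93, against 5.51 for DBD, which had no call. Of the 10 highest KLF3 peaks, the one near Klhdc8a, a gene of a kelch domain protein, was listed for all 3 constructs.

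At that peak, chr1:134184656-134185056, the KLF3 replicates had 104 and 204 tags, ΔDL 38 and 146, and DBD 50 and 56, with heights of 10.45, 10.88 and 9.53. The other 9 of the 10 highest had DBD heights between 3.11, near Krt78, and 6.85, near Alox5ap, and all 10 held at least 1 KLF word within 200 bp. At 2 of the 10, near Klhdc8a and Ccdc109a, ΔDL was higher than KLF3 as deposited. After scaling, all 10 were lower in ΔDL.

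The largest height differences of ΔDL went with few or no tags in one of the constructs. Near H3f3a, the gene of histone H3.3, at chr1:182708237-182708637, KLF3 had 9 and 46 tags, and no mutant list held the peak. Its heights were 8.65 for KLF3, 4.34 for ΔDL and 4.61 for DBD. Near Nr4a1, the gene of an orphan nuclear receptor, 15 and 37 KLF3 tags faced no call in the mutants, with heights of 8.52, 5.32 and 2.91. These lost peaks, with those near Sipa1l3, 1700016C15Rik and Cpn2 (tied with Cyp11a1), differed by between −4.31 and −3.13 and each held a KLF word.

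In the other direction, the 10 and 24 KLF3 tags near Epgn, at chr5:91466751-91467151, stood against 21 and 111 ΔDL tags. Its heights were 7.79 and 10.51, a difference of 2.72 as deposited and 1.69 after scaling, with no DBD call. The peaks near 2810407C02Rik, Terf1, the gene of a telomeric repeat binding factor, Gja5, of a connexin, and Car3, of a carbonic anhydrase, were higher in ΔDL by between 1.99 and 2.48. Near Terf1, ΔDL replicates had 11 and 19 tags and KLF3 had no call. These 4 had between 33.5% and 39.0% G+C.

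The 5 highest DBD peaks were of 2 kinds. Near Gtpbp4, the gene of a GTP binding protein, at chr13:9010843-9011243, the DBD replicates had 62 and 70 tags. No peak was called there in the KLF3 or ΔDL lists, although the heights were 9.36 for KLF3, 9.51 for ΔDL and 9.79 for DBD, so the heights of the constructs were near each other. Near Grap, the gene of an adaptor protein, at chr11:61433795-61434195, all 6 lists held the peak with 75 and 153, 16 and 115, and 73 and 67 tags. These and the Klhdc8a peak had 57.0% to 63.0% G+C, whereas those near Ust, the gene of a sulfotransferase, and Vma21, of an assembly factor of the vacuolar ATPase, had 34.5% and 36.0%.

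Near Ust, at chr10:8296918-8297318, KLF3 replicates had 33 and 46 tags, ΔDL replicates 43 and 59, and DBD replicates 49 and 40. Near Vma21, at chrX:69019695-69020095, they had 52 and 48, 40 and 58, and 48 and 41. Raw tags are not scaled for depth and ΔDL replicate 1 was the shallowest library, so they do not compare the constructs. The heights of KLF3, ΔDL and DBD were 8.47, 9.49 and 8.94 near Ust and 8.31, 9.58 and 8.78 near Vma21. The difference of ΔDL from KLF3 was 1.02 and 1.27 as deposited, and −0.01 and 0.24 after scaling. Neither site held a KLF or AP-1 word in 200 bp.

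**Figure D4:**
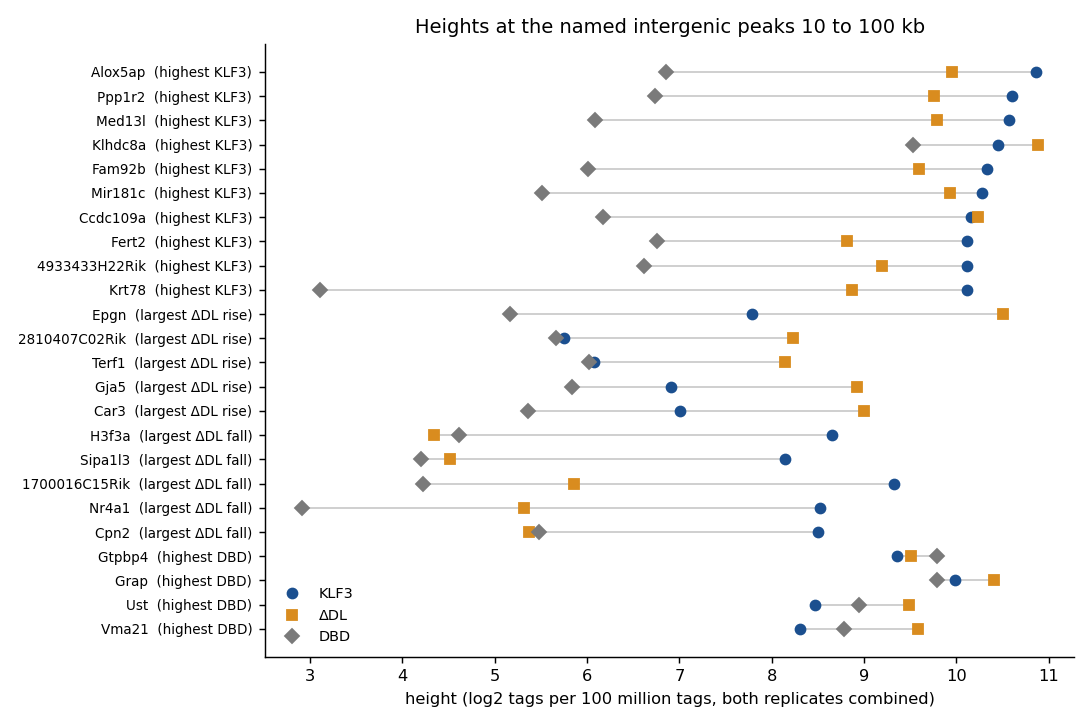
Heights (x axis, log2 tags per 100 M tags, both replicates combined) of KLF3, ΔDL and DBD at the named intergenic peaks 10 to 100 kb away (y axis), grouped by the reason for which each was named. DBD lies far to the left of KLF3 at most of the highest KLF3 peaks and next to it at the highest DBD peaks, and ΔDL lies to the right near Epgn and to the left near H3f3a.

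These features varied with the distance from the TSS within the range. Peaks at 10 to 20 kb (n = 913), 20 to 50 kb (n = 1789) and 50 to 100 kb (n = 1460) had median KLF3 heights of 7.30, 7.23 and 6.95. KLF words were in 47.1%, 43.7% and 34.9% of them, with median G+C of 44.5%, 44.0% and 41.5%, and DBD was lower than KLF3 by 2-fold or more at 53.0%, 50.1% and 39.7%. The AP-1 word was in 18.5%, 18.6% and 15.2%. The 2745 peaks upstream of their TSS and the 1417 downstream were alike in median KLF3 height (7.15 and 7.17) and in the share with a KLF word (41.0% and 42.1%).

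The median distance was 37.7 kb. At the inner limit, the 46 peaks from 10 to 10.5 kb had median heights of 7.35 for KLF3, 7.61 for ΔDL and 5.73 for DBD, and the 69 from 9.5 to 10 kb had 7.73, 7.57 and 5.77. At the outer limit, the 129 from 95 to 100 kb had 6.80, 7.44 and 6.42, and the 96 from 100 to 105 kb had 6.73, 7.43 and 6.66.

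**Figure D5:**
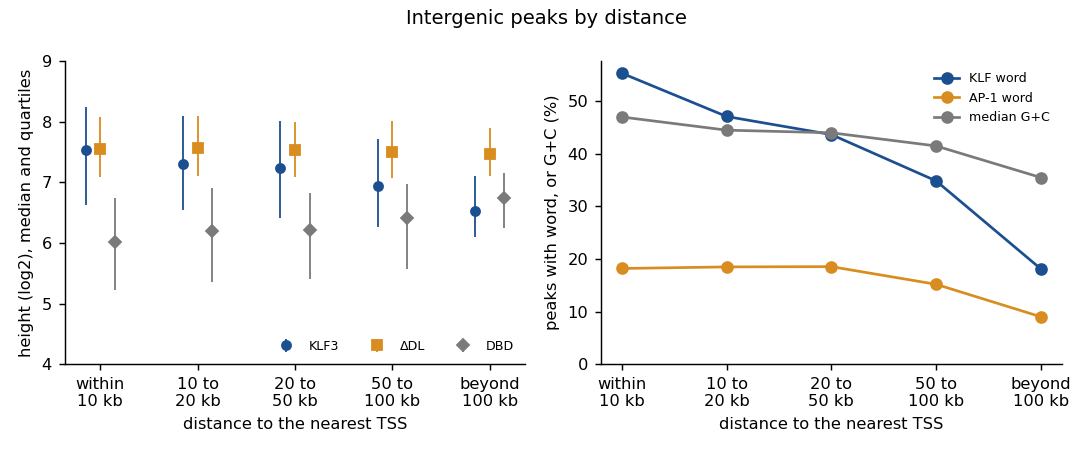
Left, median height with quartiles (log2, y axis) of KLF3, ΔDL and DBD for intergenic peaks by distance to the nearest TSS (x axis, 5 classes). Right, shares of peaks with a KLF or AP-1 word and median G+C content (y axis, %) in the same classes, of which the KLF share goes from 55.3% within 10 kb through 47.1%, 43.7% and 34.9% to 18.1% beyond 100 kb.

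Compared with the neighbouring classes in each of the 6 replicate lists, intergenic peaks 10 to 100 kb away held fewer KLF words than intergenic peaks within 10 kb and more than those beyond 100 kb. The mean difference was −7.73 percentage points from the first class (lower in 6 of 6 lists) and 15.5 points from the second (higher in 6 of 6 lists). Median G+C was 5.83 points above that beyond 100 kb, in 6 of 6 lists. Each had a two-sided exact sign-flip permutation p of 0.0313, the smallest that 6 lists allow, and an adjusted p of 0.075 over the 12 comparisons by this exact test, so none passed 0.05. Many regions lie in several of the 6 lists, and words and G+C belong to the region. The lists are therefore not independent of each other.

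AP-1 words were 3.62 points more frequent than beyond 100 kb, in 5 of 6 lists (exact permutation p = 0.0625, adjusted 0.125), and differed by −0.0869 points from the class within 10 kb (exact permutation p = 0.938). Intronic peaks at the same distance were close to the intergenic ones, which were 0.633 points higher in KLF words and 0.75 points higher in G+C in 6 of 6 lists (adjusted exact permutation p = 0.075 for both). In AP-1 words the intergenic ones differed from the intronic ones by −0.807 points, higher in 1 of 6 lists (exact permutation p = 0.0938, adjusted 0.161). Median log2 scores differed from those of the 3 classes by between −0.0492 and 0.0781, with adjusted exact permutation p of at least 0.333. Within the lists, distal peaks with a KLF word had a median log2 score 0.123 above those without, higher in 3 of 6 lists (exact permutation p = 0.25, adjusted 0.5). For the AP-1 word the difference was 0.0255, higher in 2 of 6 lists (exact permutation p = 0.5). Scores are whole tags, so many of these medians tie.

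Not every peak was far from a gene in a later annotation. On mm9, GENCODE transcripts put 443 of the 4162 peaks inside a gene body, 261 of these protein-coding, and 642 within 10 kb of a transcript start. The other 3270 (78.6%) were clear of both. A GENCODE start lay within 1 kb of 134 peaks, whose median KLF3 height was 7.92 and whose median DBD difference was −2.38. Among the named peaks, those near Fert2, Atf3 and Sipa1l3 lay 24, 28 and 237 bp from such a start.

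The peaks were spread over 2956 nearest genes, of which 2147 had 1 peak and 251 had 3 or more. With neighbours within 10 kb joined, 3191 peaks stood alone and 971 (23.3%) formed 434 clusters, of which the largest had 7 peaks. That cluster spanned chr9:102665198-102686996 near Gm5627, with KLF3 heights between 7.84 and 9.55 and median differences of −0.06 for ΔDL and −2.91 for DBD. The gene with most peaks, 4933433H22Rik, had 9, between 34.0 and 99.3 kb away, with KLF3 heights between 7.66 and 10.12 and DBD heights between 3.56 and 6.62. DBD was lower than KLF3 at all 9. Among the genes with 7 were Dlg1, of a scaffold protein of cell junctions, whose peaks had KLF3 heights between 7.13 and 8.86, 4930412B13Rik and 5430434I15Rik. Ptgs2, the gene of an inducible cyclooxygenase, and Thbs2, of a thrombospondin of the matrix, tied with them and were named after their values were seen. Some clusters share sequence, since 59 peaks overlapped another of the 4162.

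The gene lists are read against all 4162 distal peaks, of which 60.5% were listed for KLF3, DBD was at least 2-fold lower at 47.1%, and ΔDL was lower at 10.3% and higher at 31.2%. After scaling ΔDL was lower at 34.7% and higher at 0.384%, so the ΔDL direction of a list turns with the scale and is given on both. Each peak named from a list is the highest for KLF3 of its gene, a choice that itself favours a low DBD relative to KLF3. Over all distal peaks, the DBD median lay between 5.31 and 6.29 in every class of KLF3 height from 7.5 to 10.5. Genes of the cytoskeleton and its attachment had distal peaks that were almost all of the KLF3 kind. Nearest to 9 of 26 listed actomyosin and focal adhesion genes were 14 peaks, of which 13 were listed for KLF3 and DBD was at least 2-fold lower at 13 (92.9%). Their median KLF3 height was 8.39, against 7.15 over all distal peaks, and ΔDL was at least 2-fold lower at 2 and higher at 0, or 13 and 0 after scaling. Near Anxa2, the gene of a membrane and actin binding annexin, the KLF3 replicates had 47 and 97 tags and ΔDL 18 and 55, with heights of 10.05, 9.99 and 6.29 for KLF3, ΔDL and DBD. The heights were 9.98, 10.00 and 6.67 near Myh9, of non-muscle myosin, and 9.69, 8.85 and 5.18 near Actb, of β-actin. Near Vcl, of vinculin, they were 8.65, 7.52 and 5.13. At these 4 sites both DBD replicates lacked a call, except for 10 tags in replicate 2 near Myh9.

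AP-1 and ATF genes had 14 distal peaks near 4 genes, 12 of them (85.7%) listed for KLF3, and DBD was at least 2-fold lower at 9 (64.3%). ΔDL was at least 2-fold lower at 2 and higher at 2, or 7 and 0 after scaling. The peak near Atf3, of a stress-induced ATF factor, had heights of 10.07, 10.21 and 6.32, and that near Jun had 9.24, 7.96 and 6.14. Those near Fos and Maf had KLF3 heights of 9.04 and 8.14. At all 4, which were picked by KLF3 height, the DBD height was at least 2-fold lower.

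Genes of TGF-beta, Hippo and growth factor signalling had 18 peaks near 9 of 25 genes. Of these, 16 (88.9%) were listed for KLF3, DBD was at least 2-fold lower at 15 (83.3%), and ΔDL was lower at 5 and higher at 4, or 12 and 1 after scaling. The peak near Tgfbr2, of a TGF-beta receptor, had 23 and 66 KLF3 tags and 5 and 46 ΔDL tags, with heights of 9.39, 9.41 and 6.02. Near Smad6, of an inhibitory Smad, they were 9.22, 7.79 and 5.81, and near Cyr61, a Hippo target, 9.05, 8.48 and 6.35. Near Smad7, of another inhibitory Smad, the KLF3 height was 8.80.

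Extracellular matrix and integrin genes had 21 peaks near 10 of 22 genes, with 17 (81.0%) listed for KLF3, DBD lower at 15 (71.4%), and ΔDL lower at 2 and higher at 2, or 10 and 0 after scaling. The highest peak of each of the 4 leading genes had a KLF3 height of 9.20 near Col1a2, of a type I collagen chain, 9.0 near Lox, of lysyl oxidase, 8.53 near Cd44, of the hyaluronan receptor, and 8.05 near Itgb1, of an integrin chain. RUNX and related factors had 8 peaks, 7 of them listed for KLF3. DBD was at least 2-fold lower at 5 (62.5%), and ΔDL was lower at 4 and higher at 1, or 5 and 0 after scaling. They include the peaks near Snai1 (8.84, 7.77 and 4.03 for KLF3, ΔDL and DBD), Runx3, Twist2 and Twist1, whose KLF3 heights were 8.21, 8.06 and 8.05.

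KLF and Sp genes had 7 peaks near 5 of 16 genes, 4 of them (57.1%) listed for KLF3. DBD was at least 2-fold lower at 4 (57.1%), and ΔDL was lower at 0 and higher at 3, or 2 and 0 after scaling, so these shares are near those of all distal peaks. The highest lay 63.8 kb downstream of the start of Klf3 itself, at chr5:65258340-65258740, with 41 and 67 KLF3 tags, 9 and 43 ΔDL tags and no DBD call, and heights of 9.58, 9.61 and 6.14. It held no KLF word in 200 bp. Near Sp3, Klf6 and Klf10 the KLF3 heights were 8.98, 7.96 and 7.20, and Klf10 was the one of these 4 whose peak DBD also marked, at 7.19.

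Fat cell genes had 8 peaks near 6 of 13 genes, with 5 (62.5%) listed for KLF3, DBD at least 2-fold lower at 5 (62.5%), and ΔDL lower at 2 and higher at 3, or 5 and 0 after scaling. Near Dlk1, an inhibitor of fat cell formation, the heights were 8.72, 7.10 and 3.66, near Pparg, its main nuclear receptor, 8.50, 7.96 and 5.34, and near Lpl, of lipoprotein lipase, 7.65, 7.67 and 3.22. The peak near Igf1, of insulin-like growth factor 1, was of the other kind, at 22.5% G+C with no KLF or AP-1 word, and had heights of 6.85, 8.09 and 7.69.

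MicroRNA genes were nearest to 86 distal peaks, at 55 genes. KLF3 listed 52 (60.5%), the share of all distal peaks. DBD was at least 2-fold lower at 51 (59.3%) and higher at 7, and ΔDL was lower at 12 (13.95%) and higher at 21 (24.4%), or 38 and 2 after scaling. After those near Mir181c and Mir100, the highest KLF3 heights were 9.93 near Mir680-3 and 9.79 near Mir190, with ΔDL at 9.99 and 9.79 and DBD at 5.20 and 6.47. The peak near Mir680-3 was listed for ΔDL alone, although the KLF3 replicates had 52 and 78 tags there. The median KLF3 heights of the 8 gene lists lay between 7.39 and 8.39, above the 7.15 of all distal peaks, and the lists were not tested as sets.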

How the data were processed

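Of the 6 deposited samples, 3 immunoprecipitations were analysed, each of which covers both replicates of a construct, and 3 inputs entered only through the authors' peak calling. The authors aligned reads to mm9 with Bowtie2 (2.0.0) and called peaks on each replicate against its input with HOMER (4.1), as named in the submitters' processing notes and the study's methods. The replicate lists give each peak a signal, deposited as tags per 100 M tags. Heights are log2 values that the authors counted in 400 bp over both replicates. G+C content and conservation were deposited as a fraction. The G+C printed here was recomputed as a percent of 200 bp from mm9, and words were searched there on both strands.

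A peak counted as called in a replicate list with at least 1 bp in common. Scores are whole multiples of the worth of a single tag, from which tags and depth were taken. Sites in all 4 lists of a contrast were fitted with limma (3.58.1, R 4.3.3) on log2 scores centred per list. Replicate lists were compared by two-sided exact permutation over lists, with every arrangement enumerated with numpy (2.4.6). Nothing in the labels shows that replicates were separate cultures, so p-values measure the spread between these libraries, which may be technical. The overlap, word search and exact tests were checked on made-up cases with known answers, and the limma fit on simulated data. Gene bodies and starts were checked on GENCODE vM1.

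Peaks were named by rule: the 10 highest for KLF3, the 5 highest for DBD, the 5 largest ΔDL differences each way at a height of at least 8 called in both replicates, the 5 largest differences passing in each limma fit, the 5 genes with most peaks, and up to 4 genes per list, each by its peak of greatest KLF3 height. The peaks and gene lists were chosen with earlier results of these data known.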

Additional observations from a re-analysis of the deposited data

How the results depend on the processing

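Of 180 values recomputed under other settings, 144 kept their direction and side of the threshold or stayed within the spread or 1.5 times, 28 moved beyond it and 8 turned sign. Scaling the heights to equal medians over peaks listed for all 3 constructs moved the share of distal peaks at least 2-fold lower in ΔDL to 34.7% and that higher to 0.384%, and that higher in DBD to 0.457%. At a limit of 1.5-fold these shares were 18.7%, 52.3% and 16.7%, and at 4-fold 1.59%, 0.481% and 0%. With only the higher-scoring 50% of each list, 31.5%, 35.6% and 14.6% of the peaks were called in both replicates of KLF3, ΔDL and DBD.

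In limma, without the centring of the lists 0 distal peaks were lower and 0 higher in ΔDL, and 3 were lower in DBD. Leaving out a replicate gave between 0 and 128 lower and between 0 and 25 higher peaks for ΔDL, and between 2 and 13 lower for DBD. The replicate numbers share no stated day or culture. With the replicate number as a block, limma called 129 distal peaks lower for ΔDL (13.1%, against 20.5% of all sites). It called 27 higher (2.74%, against 3.09%), and 22 lower for DBD (4.22%, against 3.94%). Since the libraries of a contrast share only a number and form 2 pairs, this is not taken as a paired design. The share of DBD lists in distal peaks, less that of KLF3 lists, was −0.15 points when only 20 to 50 kb was counted. Against intergenic peaks within 10 kb, the score difference was 0.00915 with the upper 50% of each list. The AP-1 difference from that class was 0.725 points with the upper 50% and 0.69 points with a 400 bp window, and between −0.715 and 0.173 when a list was left out. The cause of these changes was not tested.

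A planned overlap of 200 bp could give no value, because the list peaks were 122 to 142 bp wide. Peak centres within 100 bp were used in its place, chosen after seeing the data, and changed no result by over 1.5 times. A planned count model with edgeR was not run, since the lists hold only called peaks, whose counts start at several tags. ΔDL replicate 1 was the shallowest library, and the part of depth in its calls was not tested. Heights combine both replicates, so no error between replicates can be given for them.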
